A study of Homo sapiens with 6 samples.

Results

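The microtubule cytoskeleton was followed through 52 genes, of 58302 gene IDs counted, in bulk RNA sequencing of A375 cells, an established human melanoma line. The genes were taken by name from a list of tubulins, tubulin-folding and tubulin-modifying factors and microtubule-associated proteins, drawn up around the acetylated tubulin network that the study describes around the nucleus of confined cells. The rule itself uses no measured value, but the list was drawn up with earlier results of these data known. Symbols were matched by Ensembl ID for 51 of the 52, and TBCE was not analysed here. The 6 libraries form 2 groups of 3, A375 cells carrying an empty vector and A375 cells stably overexpressing HMGB2 (HMGB2 OE), a chromatin protein that bends DNA. Stable lines were made by lentiviral transduction, and the labels name no confinement for either group. The study's reporting form calls the 3 replicates of each group technical. The p-values below therefore measure the spread between these cell samples and not between independent transductions.

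Microtubules are hollow polymers of alpha- and beta-tubulin dimers that are nucleated by gamma-tubulin and grow and shrink at their ends. Human cells hold several alpha and beta genes, called isotypes, whose products differ mainly in the acidic tail at the C terminus. Stable microtubules accumulate chemical marks, chiefly acetylation of a lysine inside the lumen of the tube and removal of the last tyrosine of alpha-tubulin. Structural microtubule-associated proteins (MAPs) such as MAP2 and tau bind along the lattice and stabilise it, stathmins bind free dimers and favour disassembly, and several of these MAPs are best known from neurons. Melanocytes derive from the neural crest, which they share with peripheral neurons.

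The site of acetylation can be read in the coding sequences of the alpha isotypes, shown here because acetylation is the reaction that several modifying enzymes among the 52 genes perform or reverse. The lines give codons 32 to 48 of the 4 alpha-tubulin genes measured, counted from the start codon, with codon 40 in capitals. That codon (AAG) encodes the acetylated lysine in all 4. Sequences come from the canonical transcripts of GENCODE release 44 on hg38, 5′ to 3′.
TUBA1A: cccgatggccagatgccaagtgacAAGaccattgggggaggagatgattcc
TUBA1B: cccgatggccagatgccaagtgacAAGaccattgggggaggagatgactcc
TUBA1C: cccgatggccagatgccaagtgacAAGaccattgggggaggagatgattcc
TUBA4A: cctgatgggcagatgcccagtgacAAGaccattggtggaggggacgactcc
Over these 51 bases TUBA1A differed from TUBA1B at 1, from TUBA1C at 0 and from TUBA4A at 7. A read lying wholly within this stretch could not tell TUBA1A from TUBA1C.

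Across the whole coding sequence TUBA1A shared 97.2% of aligned bases with TUBA1B, 95.9% with TUBA1C and 84.4% with TUBA4A. Reads that map to more than 1 place enter no gene count, so alpha-tubulin counts rest on the parts where these genes differ.

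For the beta-tubulins the last 15 codons, which encode the acidic tail, are given for the most abundant isotype and for the 2 isotypes with the largest log2 fold changes described below, TUBB4A and TUBB3. The capitals mark the last codon before the stop.
TUBB: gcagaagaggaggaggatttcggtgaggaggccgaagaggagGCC
TUBB4A: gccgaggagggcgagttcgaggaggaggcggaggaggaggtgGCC
TUBB3: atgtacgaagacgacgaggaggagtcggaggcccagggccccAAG
Each tail is rich in gaa and gag codons, which encode the glutamates that carry glutamylation. TUBB and TUBB4A end in alanine and TUBB3 in lysine. The 2 most alike beta genes were TUBB2A and TUBB2B, with 98.1% of aligned coding bases in common.

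The libraries held 45925053 to 56755212 reads assigned to genes. HMGB2 itself rose in HMGB2 OE (log2 fold change 1.05, SE 0.10), and no library overlapped the other group. Empty vector replicate 3 was unlike empty vector replicates 1 and 2. A chi-square per degree of freedom over genes, a measure that read sampling alone would put near 1, was 73.9 and 81.5 between it and them, against 13.5 between those 2 and 16.4 to 35.7 among HMGB2 OE libraries. Results that change without it are given both ways. All 6 markers of undifferentiated melanoma were detected at a mean of 10 or more normalised reads, and DESeq2 called 1 of them higher and 2 lower in HMGB2 OE. FN1, which encodes fibronectin, had a log2 fold change of 0.71 (adjusted p 1.97e-10), AXL, a receptor tyrosine kinase, one of -0.69 (8.58e-05) and NGFR, a neurotrophin receptor, one of -1.06 (2.98e-07). The sum of the 6, mostly AXL and VIM, ran from 63453 to 85094 with the empty vector and from 59073 to 67730 in HMGB2 OE. Of 9 melanocytic markers 5 passed that level, 0 were called, and TYR and DCT stayed near 0. Several markers lose reads that they share with a gene on the opposite strand, as explained for the tubulins below. SOX10 kept 0% of its stranded reads, and its 0 in every library is therefore no measure of its level. In the sum of the 2 stranded columns it had 32278 to 52279 normalised reads with the empty vector and 32561 to 41389 in HMGB2 OE, which may include reads of the overlapping gene. PMEL kept 3.37% and S100A1 1.82%. The melanocytic markers summed to 4982 to 5242 with the empty vector and 5446 to 5805 in HMGB2 OE in the column used, and to 45908 to 66642 and 47027 to 57631 in the stranded sum. Of 3 immune markers PTPRC had 0 reads in every library and CD3E stayed near 0, while CD68, of which 0.299% was kept, had 169 to 271 normalised reads with the empty vector in the stranded sum and 215 to 249 in HMGB2 OE, reads that cannot be told apart from those of an overlapping gene. The fibroblast list (3 of 3 passed) summed to 2627 to 4668 with the empty vector and 4225 to 5788 in HMGB2 OE, the epithelial list (4 of 4) to 958 to 1323 and 1061 to 1476, and the endothelial list (1 of 2) to 26.6 to 51.5 and 55.1 to 69.0. Among the epithelial markers KRT5 had 5.05 and 11.5 normalised reads in empty vector replicates 1 and 2, 279 in replicate 3 and 199.9 to 289 in HMGB2 OE. The part of these lists in the results below was not tested.

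For most of the microtubule genes no difference between empty vector and HMGB2 OE was called. Of the 51 genes, 49 had enough reads for an adjusted p. With all 6 libraries in DESeq2 and a threshold of 0.05 on the adjusted p, 4 were called higher in HMGB2 OE (TUBA1A, TUBB4A, MAP1A and MAP2) and 1 lower (TUBE1). That is 8.16% higher and 2.04% lower, against 2.29% and 2.64% of all 18836 genes tested. The 44 others had log2 fold changes from -1.15 to 0.59. These are levels in bulk RNA, in which a change in the number of expressing cells and a change in RNA per cell cannot be told apart. The median over the 49 was 0.07, against 0.0027 over all genes tested, and 35 lay above 0 and 14 below. Over all genes tested 50.4% lay above 0. At an unadjusted p under 0.05 there were 7 higher and 1 lower. The share of all genes at that unadjusted p was not computed, so these counts have no background. EdgeR called 3 higher and 1 lower, with TUBA1A falling just outside (adjusted p 0.0508) and TUBB4A just inside (0.0498). Over all genes it called 215 higher and 255 lower. The share of all genes that edgeR called was not computed, so its counts have no background either. The libraries of the 2 groups did not overlap for 14 of the 49 genes (28.6%), 10 higher and 4 lower in HMGB2 OE, against 22.8% of the 16692 genes with a mean of 10 or more normalised reads.

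**Figure D1:**
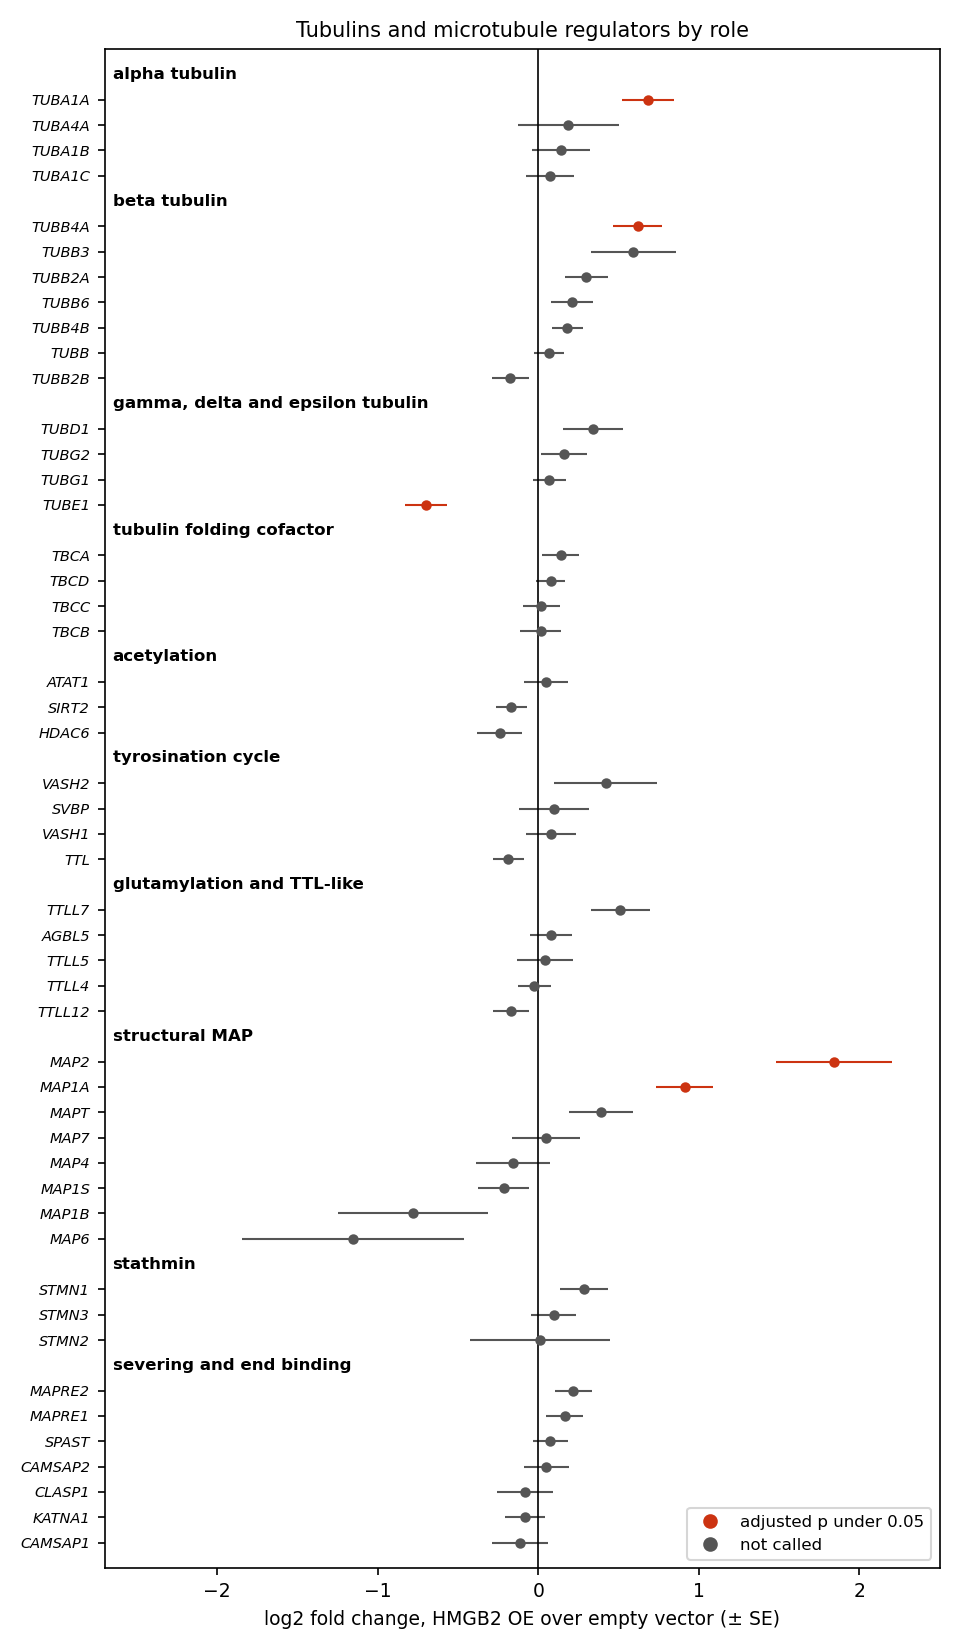
The 49 genes with an adjusted p, grouped by role, are plotted with their log2 fold change of HMGB2 OE over empty vector on the x axis (points) and its standard error (bars), from the DESeq2 fit of all 6 libraries. Red marks the 5 called genes. TUBA1A, TUBB4A, MAP1A and MAP2 lie to the right of 0 and TUBE1 to the left. The widest bars are those of MAP6, which had few reads, and MAP1B, which varied within the empty vector group.

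Among the alpha-tubulins, TUBA1A, an isotype abundant in developing neurons, had the largest change. Its gene lies at chr12:49184686-49189080 on the minus strand. TUBA1A had 3873, 4010.1 and 5333 normalised reads in empty vector replicates 1 to 3 and 6378, 6622 and 8209 in HMGB2 OE. Every HMGB2 OE library lay above every empty vector library. The log2 fold change was 0.68 (SE 0.16, 95% interval 0.37 to 1.0, DESeq2 adjusted p = 0.00107), a 1.6-fold higher mean. It was 0.84 without empty vector replicate 3. The 5′ ends of TUBA1A and TUBA1C overlap on opposite strands, and the column used kept 84.1% of the TUBA1A reads that the 2 stranded columns hold together. With the reads set aside included, some of which may belong to TUBA1C, the log2 fold change was 0.70. Of the 50-base words of TUBA1A, 19.4% also occur in other genes, chiefly TUBA1B and TUBA1C. Reads from these words that map to more than 1 place are missing from its count.

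The other alpha genes were not called. TUBA1B, a main isotype of dividing cells, had 8001, 6839 and 10530.2 normalised reads with the empty vector and 7958, 9080.3 and 10938 in HMGB2 OE. These ranges overlapped, with a log2 fold change of 0.14 (95% interval -0.21 to 0.49, DESeq2 adjusted p = 0.833). It became a call without empty vector replicate 3 (0.33, adjusted p 0.0425). TUBA1B kept only 11% of its stranded reads, and an antisense gene, TUBA1B-AS1, covers 44% of its exon bases. Its level in this column may therefore be understated, though reads set aside may also include those of TUBA1B-AS1. TUBA1C had 14012, 12047 and 16700.0 normalised reads with the empty vector and 13130.2, 14990.0 and 16876 in HMGB2 OE, a log2 fold change of 0.07, and kept 43.9%. TUBA4A, an isotype typical of platelets, muscle and brain, was scarce at 91.9, 76.2 and 104 with the empty vector and 153, 82.7 and 73.2 in HMGB2 OE (log2 fold change 0.19). Its highest library was HMGB2 OE replicate 1, and without that library the sign of the difference turned (-0.22).

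Of 7 beta-tubulin genes 1 was called. TUBB4A, an isotype typical of brain at chr19:6494319-6502848 on the minus strand, had 562, 574 and 454 normalised reads with the empty vector and 876, 868 and 697 in HMGB2 OE. The groups did not overlap. The log2 fold change was 0.62 (SE 0.16, 95% interval 0.31 to 0.92, DESeq2 adjusted p = 0.00302), a 1.53-fold higher mean. The call was lost without HMGB2 OE replicate 1 (adjusted p 0.115) or replicate 2 (0.0942), with log2 fold changes of 0.56 and 0.57. It remained without empty vector replicate 3 (0.52, adjusted p 0.0025). In edgeR TUBB4A passed the threshold only narrowly (adjusted p 0.0498).

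TUBB3, the class III beta-tubulin widely used as a marker of neurons, had a log2 fold change of similar size at much lower counts. It had 50.5, 48.7 and 53.7 normalised reads with the empty vector and 81.8, 81.8 and 66.4 in HMGB2 OE. The groups did not overlap, but the log2 fold change of 0.59 was not called (SE 0.27, 95% interval 0.07 to 1.12, DESeq2 adjusted p = 0.243). A readthrough gene on the same strand covers 21.3% of its exon bases (1584 bases), and reads shared with it are not counted. The level of TUBB3 may therefore be understated. TUBB4B had 17943, 18416 and 19268 normalised reads with the empty vector and 19612, 21433 and 22061 in HMGB2 OE, again without overlap, and a smaller log2 fold change of 0.18 (DESeq2 adjusted p = 0.379). It passed the threshold with a term for the third replicates (adjusted p 0.0156) and in replicates 1 and 2 alone (0.0343). TUBB2B went the other way without overlap, from 931, 962 and 836 to 811, 813 and 796 (log2 fold change -0.17, adjusted p = 0.548).

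The remaining beta isotypes overlapped between groups. TUBB, the most abundant of them, had 36908, 41005 and 37623 normalised reads with the empty vector and 39127, 40837 and 41252 in HMGB2 OE, a log2 fold change of 0.07 (95% interval -0.11 to 0.25). TUBB2A had 746, 779.5 and 926 with the empty vector and 915, 1030.3 and 1073 in HMGB2 OE (log2 fold change 0.30, DESeq2 adjusted p = 0.252), and 33.8% of its 50-base words occur in other genes, mostly TUBB2B. TUBB6 had 5912, 5299.9 and 6586 with the empty vector and 6011, 6972 and 7612 in HMGB2 OE (log2 fold change 0.21, adjusted p = 0.518). TUBB2A and TUBB6 became calls without empty vector replicate 3 (log2 fold changes 0.40 and 0.29, adjusted p 0.00968 and 0.0415). Both also passed with a term for the third replicates (0.0160 and 0.0293).

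The make-up of the tubulin pool was compared as shares, since a share within a library does not depend on how libraries are scaled. Normalised reads were divided by the kilobases of merged exons of each gene and expressed as a percentage of the 4 alpha or the 7 beta genes. TUBA1A made up 15.8%, 18.4% and 17.2% of the alpha genes in empty vector replicates 1 to 3 and 24.2%, 22.6% and 23.8% in HMGB2 OE, a mean of 17.1 ± 1.33% against 23.6 ± 0.843% (SD, n = 3 each). The exact two-sided permutation p was 0.1, the smallest that 3 against 3 allows, and 0.22 after Benjamini-Hochberg adjustment over 11 shares. TUBA1C held 47.6 ± 1.40% with the empty vector and 42.9 ± 0.959% in HMGB2 OE, with no overlap (exact permutation p = 0.1). TUBA1B held 34.9 ± 1.32% and 33.2 ± 0.80%, with overlapping libraries. TUBA4A held 0.365 ± 0.0203% and 0.370 ± 0.202%.

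These shares depend on which reads are kept. The sum of the 2 stranded columns returns the reads set aside where TUBA1B and TUBA1C overlap genes on the opposite strand. Those reads may include some of the overlapping genes. In that sum TUBA1B made up 71.0 ± 1.48% and 70.6 ± 0.288% of the alpha genes, TUBA1C 24.3 ± 1.36% and 22.8 ± 0.320%, and TUBA1A 4.66 ± 0.228% and 6.39 ± 0.149% (SD, n = 3 each). The share of TUBA1A was smaller on this scale and still did not overlap between groups, while that of TUBA1C overlapped.

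**Figure D2:**
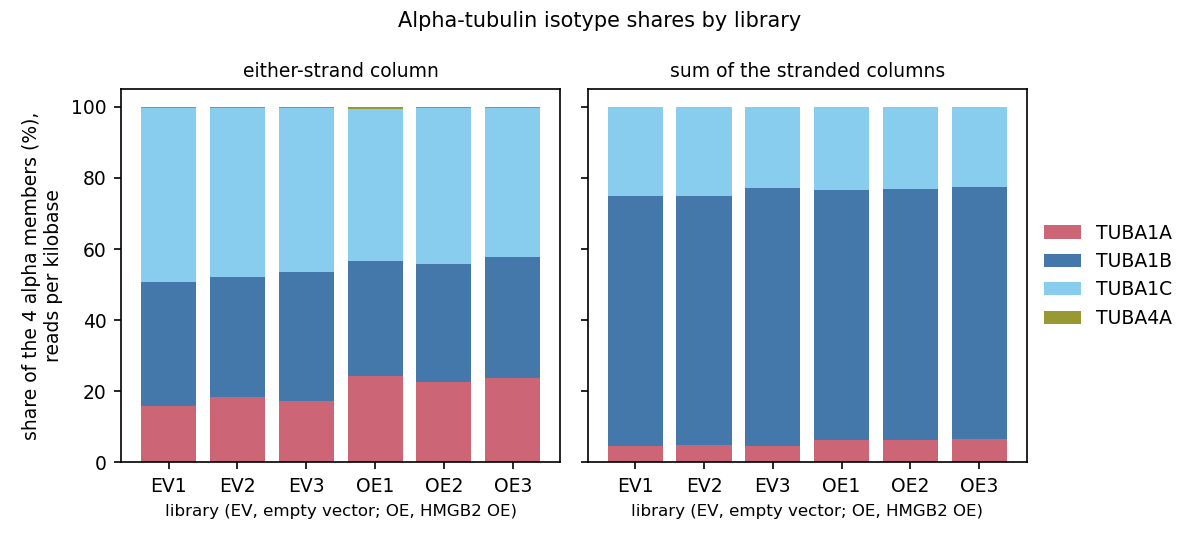
Stacked bars give, for each library on the x axis, the percentage of normalised reads per kilobase that each of the 4 alpha-tubulin genes held, from the either-strand column (left) and from the sum of the stranded columns (right). TUBA1A holds 15.8% to 18.4% in empty vector libraries and 22.6% to 24.2% in HMGB2 OE libraries on the left, and 4.51% to 4.92% and 6.23% to 6.53% on the right, where TUBA1B holds 69.9% to 72.6%.

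Among the beta genes TUBB and TUBB4B together supplied most of the reads per kilobase. TUBB held 45.6 ± 1.88% with the empty vector and 43.6 ± 0.921% in HMGB2 OE, and TUBB4B 43.9 ± 1.10% and 45.3 ± 0.554% (SD, n = 3 each). Both overlapped between groups. TUBB kept 53.5% of its stranded reads, and in the stranded sum it held 58.6 ± 1.69% and 56.6 ± 1.28% and TUBB4B 32.5 ± 1.04% and 34.1 ± 0.970%, again with overlap. TUBB6 was next in the column used, at 7.26 ± 0.814% and 7.62 ± 0.541%, with overlapping libraries. TUBB4A was a minor isotype at 0.795 ± 0.109% and 1.11 ± 0.179%. TUBB3 held 0.0331 ± 0.00181% and 0.0455 ± 0.00690% in the column used. Reads shared with its readthrough gene are left out there, so these shares may understate TUBB3. TUBB2B held 1.06 ± 0.0877% and 0.852 ± 0.0489%. The shares of TUBB4A, TUBB3 and TUBB2B did not overlap between groups (exact permutation p = 0.1 each, 0.22 adjusted over the 11 shares), so 5 of the 11 shares were separated in all. These 5 are not independent results, since within a family a rise in any share lowers the others. TUBA1C, whose own reads had a log2 fold change of 0.07, is among the 5.

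TUBE1, which encodes epsilon-tubulin, a protein of centrioles and basal bodies, was the gene called lower. It lies at chr6:112070663-112087529 on the minus strand. TUBE1 had 2662, 2653 and 3279.7 normalised reads with the empty vector and 1918, 1655 and 1709.5 in HMGB2 OE. The groups did not overlap, and empty vector replicate 3 was the highest library. The log2 fold change was -0.70 (SE 0.13, 95% interval -0.96 to -0.45, DESeq2 adjusted p = 9.53e-06), which puts the HMGB2 OE mean at 0.615 of that with the empty vector. Without empty vector replicate 3 it was -0.59, and it was called under all 14 alternative settings. Almost none of its words are shared with other genes (0.068%).

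TUBD1, which encodes delta-tubulin, needed for the triplet microtubules of centrioles, had a difference of the opposite sign that was not called. TUBD1 had 312, 323 and 467 normalised reads with the empty vector and 447, 441 and 509 in HMGB2 OE (log2 fold change 0.34, 95% interval -0.02 to 0.71, DESeq2 adjusted p = 0.399). Replicate 3 of the empty vector lay within the HMGB2 OE range, and without it TUBD1 was called higher (0.55, adjusted p 0.00392). TUBG1 and TUBG2, the gamma-tubulins that nucleate microtubules, had log2 fold changes of 0.07 and 0.16 (adjusted p 0.864 and 0.724). The folding cofactors TBCA, TBCB, TBCC and TBCD, which assemble the alpha-beta dimer, gave 0 calls of 4 in DESeq2 and in edgeR and 0 at an unadjusted p under 0.05, with log2 fold changes from 0.01 to 0.14.

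The enzymes of acetylation were examined because the mark itself cannot be seen in RNA. None of the 3 was called by DESeq2 or edgeR, and none had an unadjusted p under 0.05. ATAT1, the acetyltransferase of the alpha-tubulin lysine, had 343, 391 and 392 normalised reads with the empty vector and 392, 391 and 380.4 in HMGB2 OE. The libraries overlapped and the log2 fold change of 0.05 had a 95% interval of -0.22 to 0.32. HDAC6, the main tubulin deacetylase, had 1733, 1742 and 1445 with the empty vector and 1477, 1502 and 1184 in HMGB2 OE, a log2 fold change of -0.24 (95% interval -0.52 to 0.04, DESeq2 adjusted p = 0.463). In both groups replicate 3 was the lowest library for HDAC6. It became a call without empty vector replicate 3 (-0.32, adjusted p 0.0441) and with a term for the third replicates (-0.24, adjusted p 0.0161), but not in replicates 1 and 2 alone (-0.22, adjusted p 0.0765). SIRT2, another deacetylase that acts on tubulin, had 1904, 1747 and 1797 with the empty vector and 1624, 1631 and 1596 in HMGB2 OE, without overlap, and a log2 fold change of -0.17 that was not called (adjusted p = 0.462).

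The enzymes that remove and restore the last tyrosine gave 0 calls of 4 in either tool, and 0 had an unadjusted p under 0.05. TTL, the ligase that adds tyrosine back, had 3825, 3849 and 3676 normalised reads with the empty vector and 3389, 3481 and 3111 in HMGB2 OE. Every HMGB2 OE library lay below every empty vector library, with a log2 fold change of -0.19 (SE 0.10, 95% interval -0.38 to 0.01, DESeq2 adjusted p = 0.377). It passed the threshold when a term for the third replicates was added (adjusted p 0.0284). VASH1 and VASH2, the vasohibins that remove tyrosine, had log2 fold changes of 0.08 and 0.42. VASH1 had 479, 482 and 427 normalised reads with the empty vector and 471, 571 and 427 in HMGB2 OE, and VASH2 38.4, 78.8 and 66.5 with the empty vector and 66.3, 92.6 and 87.8 in HMGB2 OE. Both overlapped between groups. SVBP, the small partner that the vasohibins need, had 123, 139 and 174 with the empty vector and 149.9, 136 and 181 in HMGB2 OE (log2 fold change 0.10), from only 17.4% of its stranded reads.

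**Figure D3:**
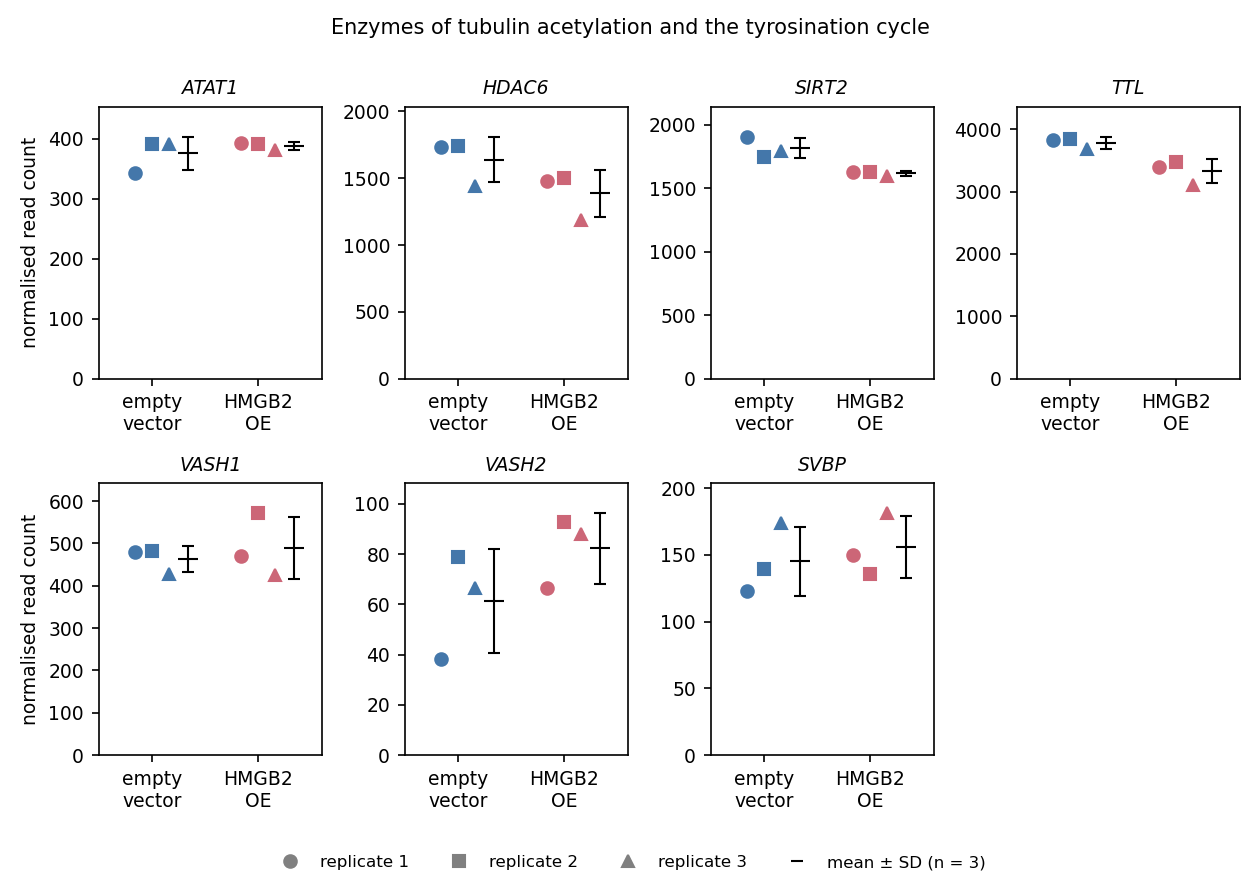
Normalised read counts (y axis, from 0) of the acetylation enzymes ATAT1, HDAC6 and SIRT2 and of the tyrosine cycle genes TTL, VASH1, VASH2 and SVBP are plotted for each library, with symbols for the replicate and black bars for mean ± SD (n = 3). SIRT2 and TTL are lower in each HMGB2 OE library than in any empty vector library by small margins (fold 0.891 and 0.88), and the other 5 overlap.

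Glutamylation and related reactions, carried out by TTL-like ligases and reversed by carboxypeptidases such as AGBL5, were represented by 5 genes. DESeq2 and edgeR called 0 of them, and 1, TTLL7, a polyglutamylase of beta-tubulin, had an unadjusted p under 0.05. TTLL7 had 131, 140.0 and 167 normalised reads with the empty vector and 219.8, 198 and 206 in HMGB2 OE. The groups did not overlap, and the log2 fold change of 0.51 (SE 0.18, 95% interval 0.15 to 0.87) had the lowest DESeq2 adjusted p of the genes not called (0.0887). It was called without empty vector replicate 3 (0.62, adjusted p 0.0212) and with a term for the third replicates (0.52, adjusted p 0.0377). TTLL4, TTLL5, TTLL12 and AGBL5 had log2 fold changes from -0.17 to 0.08.

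Structural MAPs had the largest log2 fold changes in both directions, of which those of MAP2 and MAP1A were called. MAP2, which binds microtubules of dendrites and is a marker of mature neurons, lies at chr2:209424047-209734147 on the plus strand. MAP2 had 12.1, 21.3 and 20.4 normalised reads with the empty vector and 65.4, 69.9 and 57.4 in HMGB2 OE. All 3 HMGB2 OE libraries lay well above the empty vector libraries. The log2 fold change was 1.84 (SE 0.36, 95% interval 1.13 to 2.55, DESeq2 adjusted p = 3.57e-05), a 3.58-fold higher mean. Its level stayed low in both groups, at 1.51 and 5.43 normalised reads per kilobase of exon, where the ubiquitous MAP4 had 756 and 678.

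MAP1A, a MAP of mature neurons at chr15:43510958-43531620 on the plus strand, had 159.6, 169 and 150.2 normalised reads with the empty vector and 264, 341 and 297 in HMGB2 OE. The groups did not overlap. The log2 fold change was 0.91 (SE 0.18, 95% interval 0.57 to 1.25, DESeq2 adjusted p = 2.04e-05), a 1.88-fold higher mean. None of the words of MAP1A or MAP2 occur in other genes, and both were called under all 14 alternative settings. Without empty vector replicate 3 their log2 fold changes were 0.87 and 1.94. MAPT, which encodes tau, had 202, 219 and 141 normalised reads with the empty vector and 235, 259 and 243 in HMGB2 OE, without overlap, and a log2 fold change of 0.39 that was not called (adjusted p = 0.358).

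**Figure D4:**
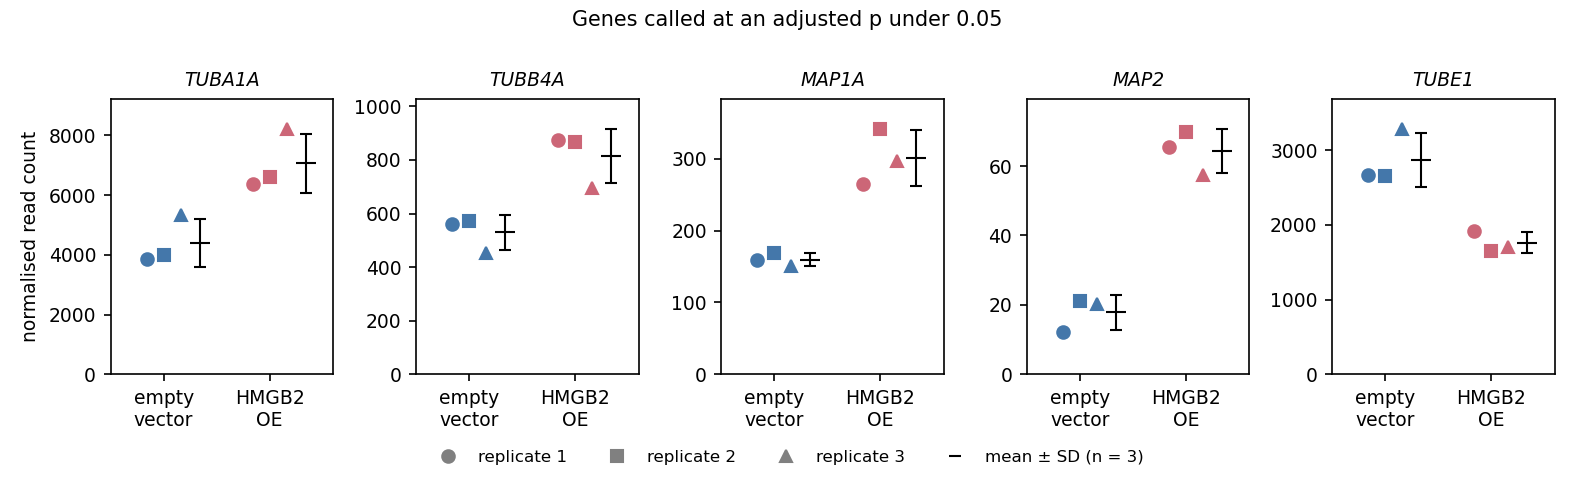
Normalised read counts (y axis, from 0) of the 5 called genes are plotted for each library, with symbols for the replicate and black bars for mean ± SD (n = 3). For TUBA1A, TUBB4A, MAP1A and MAP2 the HMGB2 OE libraries all lie above the empty vector libraries, and for TUBE1 all lie below.

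MAP1B, the relative of MAP1A that is prominent in growing axons, had the opposite sign. It had 2258, 2315 and 892 normalised reads with the empty vector and 1185, 1229 and 769.8 in HMGB2 OE. Empty vector replicates 1 and 2 lay far above every HMGB2 OE library, but empty vector replicate 3 lay among them. The log2 fold change of -0.78 therefore had an SE of 0.47 and was not called (95% interval -1.69 to 0.13, DESeq2 adjusted p = 0.475). Without that library it was -1.10 (adjusted p 2.2e-10), and in replicates 1 and 2 alone -0.92 (4.52e-22). Without empty vector replicate 3, MAP1A was thus called higher and MAP1B lower.

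MAP6, which protects microtubules from cold, was scarce, at 16.2, 20.4 and 11.8 normalised reads with the empty vector and 4.54, 13.8 and 3.38 in HMGB2 OE (log2 fold change -1.15, SE 0.69, adjusted p = 0.477). MAP1S, an autophagy-linked member of the MAP1 family, had 4644, 3860.4 and 3117 with the empty vector and 3329, 3646 and 3029.7 in HMGB2 OE (log2 fold change -0.22, adjusted p = 0.618). MAP4, the main MAP of non-neuronal cells, had 12967, 14012 and 7040.1 with the empty vector and 10707, 11521 and 8279.9 in HMGB2 OE, with empty vector replicate 3 the lowest of all 6 libraries (log2 fold change -0.16). MAP7, which recruits kinesin-1, had a log2 fold change of 0.05. DCX, a MAP of migrating neurons, had 0 reads in all 6 libraries. MAP4 was named after its values were seen.

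The stathmins gave 0 calls of the 3 tested, in DESeq2 and edgeR alike, and 0 at an unadjusted p under 0.05. STMN1, which sequesters tubulin dimers and is abundant in dividing cells, had 9102, 10027 and 12872 normalised reads with the empty vector and 12593, 11949.5 and 14402 in HMGB2 OE (log2 fold change 0.28, 95% interval -0.01 to 0.58, DESeq2 adjusted p = 0.386). Empty vector replicate 3 again lay within the HMGB2 OE range. STMN2 and STMN3, the neuronal members, had log2 fold changes of 0.01 and 0.10, and STMN4 had 1 read in all. STMN1 was named after its values were seen. Severing, minus-end and plus-end binding factors gave 0 calls of 7 in either tool and 0 at an unadjusted p under 0.05. The log2 fold changes of KATNA1, SPAST, CAMSAP1, CAMSAP2, MAPRE1, MAPRE2 and CLASP1 lay between -0.11 and 0.22.

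The count of microtubule genes called depended on empty vector replicate 3. Without that library 10 of 48 tested were called higher and 5 lower (20.8% and 10.4%), but 8.31% and 9.46% of all genes tested were then called too. In replicates 1 and 2 of both groups alone, 8 were called higher and 4 lower of 48 tested (16.7% and 8.33%), against 8.01% and 9.44% of all genes. With a term for the third replicates of both groups, 11 were higher and 4 lower of 48 (22.9% and 8.33%), against 8.71% and 8.61%. TUBA1A, TUBB4A, MAP1A, MAP2 and TUBE1 were among the calls in each of these 3 fits.

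A further 6 genes were called both without empty vector replicate 3 and in replicates 1 and 2 alone. STMN1, TUBD1 and TUBB2A were higher, with log2 fold changes without that library of 0.44, 0.55 and 0.40. MAP1B, MAP4 and MAP1S were lower, at -1.10, -0.41 and -0.35. For these 6 genes empty vector replicate 3 lay on the HMGB2 OE side of empty vector replicates 1 and 2. Their selection favours this position, since they were called without that library and not with it. The position is therefore no measure of how far empty vector replicate 3 resembles HMGB2 OE over all genes. Why that library stood apart was not tested.

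**Figure D5:**
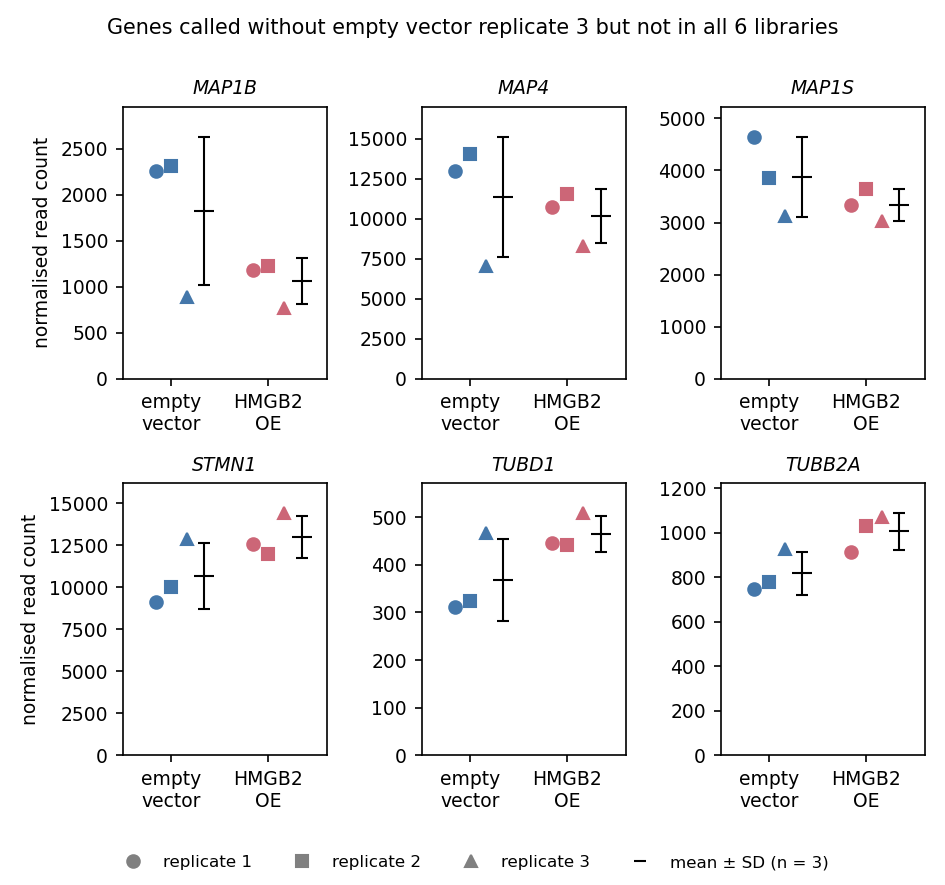
Normalised read counts (y axis, from 0) of the 6 genes called without empty vector replicate 3 and in replicates 1 and 2 alone, but not in all 6 libraries, are plotted for each library, with symbols for the replicate and black bars for mean ± SD (n = 3). The empty vector triangle (replicate 3) lies on the HMGB2 OE side of the empty vector circle and square in each panel, a position that the choice of these genes favours.

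Other genes of the same machinery were read from fixed lists, of which 136 genes had an adjusted p. DESeq2 called 9 of them higher (6.62%) and 0 lower, against the 2.29% and 2.64% of all genes given above. EdgeR called 4 higher and 0 lower, and 215 and 255 over all genes, again without a share over all genes. At an unadjusted p under 0.05 there were 15 higher and 6 lower, for which no share over all genes was computed. Their median log2 fold change was 0.03. Without empty vector replicate 3 there were 13 higher and 18 lower of 133 tested (9.77% and 13.5%), against 8.31% and 9.46% of all genes, and in replicates 1 and 2 alone 12 higher and 19 lower of 127 (9.45% and 15.0%), against 8.01% and 9.44%.

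Of 40 further MAPs, severing and end-binding proteins 6 were called higher (15%) and 0 lower, against 2.29% and 2.64% of all genes. EdgeR called 2 of this list higher and 0 lower. Without empty vector replicate 3 there were 6 higher and 6 lower of 40 (15% each), against 8.31% and 9.46% of all genes. In replicates 1 and 2 alone there were 5 higher and 6 lower of 37 (13.5% and 16.2%), against 8.01% and 9.44%. KATNAL1, a katanin-like severing enzyme, had 679, 691 and 739 normalised reads with the empty vector and 974, 1016 and 1076 in HMGB2 OE (log2 fold change 0.54, SE 0.11, DESeq2 adjusted p = 0.000161), and was called under all 14 alternatives. MTUS2 had 14.1, 15.9 and 24.7 with the empty vector and 40.9, 45.3 and 45 in HMGB2 OE (log2 fold change 1.27, adjusted p = 0.0303), and TPPP3, a tubulin polymerization-promoting protein, 138, 128 and 135 with the empty vector and 214, 278 and 171 in HMGB2 OE (log2 fold change 0.72, adjusted p = 0.0239). The MTUS2 and TPPP3 calls were lost in edgeR (adjusted p 0.0528 and 0.0804) and without some single libraries (up to 0.365 and 0.396).

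Of 37 kinesin motors 3 were called higher (8.11%) and 0 lower, against 2.29% and 2.64% of all genes. EdgeR called 2 kinesins higher and 0 lower. Without empty vector replicate 3 the kinesins gave 3 higher and 5 lower (8.11% and 13.5%), against 8.31% and 9.46% of all genes. KIF20A, which acts in cytokinesis, had 2382, 2526 and 2716 normalised reads with the empty vector and 3597, 3849 and 4038 in HMGB2 OE (log2 fold change 0.59, SE 0.11, DESeq2 adjusted p = 3.78e-06), and was called under all 14 alternatives. KIF18A, which dampens chromosome movement at the spindle, had 710.2, 815 and 846 with the empty vector and 1053, 1117 and 1163 in HMGB2 OE (log2 fold change 0.49, adjusted p 0.00274). KIF11, which pushes the spindle poles apart, had 4487, 4867 and 4448 with the empty vector and 5547, 6221 and 6229 in HMGB2 OE (log2 fold change 0.38, adjusted p 0.0071). Both were lost without some single libraries (adjusted p up to 0.151 and 0.213), and KIF11 also in edgeR (0.0597). By DESeq2 and edgeR, 0 were called of 20 genes of the gamma-tubulin ring complex and nucleation, 13 further tubulin modifiers, 25 dynein and dynactin genes and 1 further tubulin gene with enough reads, TUBB1 (log2 fold change 1.46, adjusted p 0.322). At an unadjusted p under 0.05 the nucleation list held 1 lower gene, the modifiers 1 higher and 1 lower and the dynein list 1 higher, and TUBB1 also passed.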

How the data were processed

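RNA from A375 cells was selected by its poly(A) tail and sequenced in 6 libraries, 3 empty vector and 3 HMGB2 OE. The authors trimmed reads with Trimmomatic and aligned them with STAR to hg38, and deposited raw read counts per gene, whole numbers without normalization. bcl2fastq 2.20 and FastQC are also named in the submitters' processing notes. The versions of Trimmomatic and STAR, the FastQC version used for these libraries and the annotation release are not given in the sources used here. Each file lists 58302 gene IDs, 57532 of which matched GENCODE 44, and 4 summary lines that were left out. IDs without a match held 0.0575% of counts.

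Column 2, which takes reads from either strand and sets aside reads shared with a gene on the opposite strand, was used. The library is unstranded (50.1% to 50.2% of stranded reads in column 3), so the sum of columns 3 and 4 was an alternative that gives shared reads to both genes. Multimapped reads and ambiguous reads (10.7% to 11.4%) enter no count. Multimapped reads made up 10.6% in HMGB2 OE replicate 3 and 2.58% to 4.89% in the other libraries. The effect of that difference on the tubulin counts was not tested. With 45925053 to 56755212 assigned reads per library, precision was limited by the spread between libraries and, for genes such as MAP2 and MAP6, by low counts.

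Counts were tested over all genes with the Wald test of DESeq2 1.42.0 in R 4.3.3 at default settings, the tool and settings the study names, with group as the single term. The threshold for a call was an adjusted p (Benjamini-Hochberg) under 0.05 over the 18836 genes that received one, out of 32925 with a count. Normalised reads are counts divided by DESeq2 size factors, fold changes were not shrunken, and intervals are 95% Wald intervals. The DESeq2 and edgeR steps were tested on simulated counts. Planted changes there were larger than those of the called microtubule genes other than MAP2, in genes above the level of MAP2. The simulation used a common dispersion and no library that stood apart, so its outcome does not extend to the results above. Alternatives were edgeR 4.0.16 (quasi-likelihood test, TMM), TMM factors in DESeq2, a minimum of 10 counts in 3 libraries, no independent filter, the stranded sum, the replicate number as a block, a term for the third replicates, replicates 1 and 2 alone, and each library left out. Isotype shares were tested by an exact permutation test. Same-numbered libraries of the 2 groups deviated together with correlations of 0.0906, 0.142 and 0.349 over 16692 genes, so the numbers were not taken to pair them.

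The genes and lists were chosen with earlier results of these data known. Values per library were given for called genes, alpha- and beta-tubulins, acetylation and tyrosine cycle genes, and the 3 largest rises and falls among the others with a mean of 10 or more, and in each further list for up to 3 called genes of largest change. The last codons of the alpha-tubulin genes are not reported here.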

Additional observations from a re-analysis of the deposited data

Results flagged for a closer look

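AGBL5, a carboxypeptidase that removes glutamate from tubulin tails, drew attention for reads outside the column that the comparisons use, in which 56.3% of its stranded reads are missing. Those set-aside reads came to 2785, 2705 and 3389 normalised reads in empty vector replicates 1 to 3 and to 3743, 3447 and 4165 in HMGB2 OE, without overlap. OST4 and an unnamed gene on the opposite strand cover 2.86% and 3.10% of its exon bases, and reads from them cannot be told apart from those of AGBL5. With these reads included the log2 fold change of AGBL5 was 0.23 and was not called (DESeq2 adjusted p = 0.430), against 0.08 without them. Such a loss was not particular to AGBL5. TUBA1B and SVBP lost more of their stranded reads (89.0% and 82.6%) and TUBA1C about as much (56.1%). Set-aside reads of these other genes overlapped between groups. How often set-aside reads separate the groups over all genes was not computed.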

How the results depend on the processing

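Of 416 values of the 30 named genes under the alternatives, 377 kept their direction and their side of the threshold, 3 lost the call (TUBA1A in edgeR, TUBB4A without HMGB2 OE replicate 1 or 2), 28 gained one and 8 changed sign, none of them a called value. HMGB2 was called under all 14 alternatives (0.98 to 1.09). The 8 changes of sign arose when 1 library was left out. With 1 library left out log2 fold changes ran from -0.036 to 0.20 for TUBA1C, from -0.22 to 0.38 for TUBA4A, from -0.014 to 0.080 for ATAT1, from -0.046 to 0.17 for VASH1, from -0.023 to 0.24 for SVBP and from -0.41 to 0.021 for MAP4. Over all genes, 432 were called higher and 498 lower. EdgeR called 215 and 255, the term for the third replicates gave 1374 and 1359, replicates 1 and 2 alone 1203 and 1418, and leaving out 1 library 155 to 1334 and 208 to 1520, highest without empty vector replicate 3. Of the microtubule genes, 4 were called higher and 1 lower. The term for the third replicates gave 11 and 4, replicates 1 and 2 alone 8 and 4, and leaving out 1 library 3 to 10 and 1 to 5. Separated isotype shares numbered 5, and 5 to 9 with 1 library left out, which by construction can only keep or add separations. With the replicate block 886 and 940 genes were called over all, and 5 and 2 of the microtubule genes, where STMN1 (log2 fold change 0.29, adjusted p 0.00316) and MAP1B (-0.69, adjusted p 6.17e-06) were added. The share of all genes called in that fit was not computed. The replicate numbers share no stated origin, and the correlations of same-numbered libraries were 0.0906, 0.142 and 0.349. Of the third replicates both correlated best with each other, while empty vector replicate 1 correlated best with HMGB2 OE replicate 2 (0.212). The stranded sum changed the TUBA1A share difference from 6.42 to 1.73 percentage points. There TUBA1B gains the reads set aside in the column used, which may include reads of TUBA1B-AS1. MAP6 had an adjusted p in 10 of the alternatives. Other causes of change were not tested.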
